A study of Mus musculus with 4 samples.

Results

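Transcripts of 46 genes of mitosis were followed in granulocyte/monocyte progenitors (GMP), the marrow precursors of granulocytes and monocytes, in mice with and without Icsbp (Irf8), an interferon regulatory factor that steers myeloid development. The 46 genes were taken from a list of gene symbols, ordered by step of mitosis, and found on the arrays through the platform annotation. Of the 46 genes, 43 lay on 76 probe sets present on both array types used, and all 43 were among the 7820 genes tested. Cdca8 and Espl1 had probe sets on the larger array only, and Ccnb1 had no named probe set here, so no value is given for it.

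Each group consisted of 2 preparations of GMP sorted by flow cytometry, 1 hybridised to an Affymetrix 430A array and 1 to the larger MOE430_2 array. The wild type preparations were pools of marrow from at least 10 mice and the Icsbp-deficient preparations came from at least 8 mice. An age, 10 to 16 weeks, is labelled for the wild type sample on the 430A array only. That sample is labelled with a mixed C57/Bl6 and S129Ola background and no genotype, and was placed with the wild type through the series' design text. The sources used here give neither the strain of the other samples nor the deleted part of Icsbp. No drug, cytokine or other treatment is labelled, and the mouse pools mean that differences between single animals cannot be seen.

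Cells enter mitosis when cyclin-dependent kinase 1, bound to A and B cyclins and freed by Cdc25 phosphatases, becomes active. Condensin and topoisomerase II then compact the chromosomes, spindle fibres attach at the kinetochores under the watch of a checkpoint, and the anaphase-promoting complex releases the chromatids. The cell is finally cut by a contractile ring placed by the central spindle, which is called cytokinesis. GMP divide often, and most of these transcripts accumulate late in the cell cycle of any dividing cell, so in bulk RNA they follow how many cells are in G2 and mitosis as well as the amount in each cell. On these arrays fewer dividing cells and less RNA per dividing cell cannot be told apart.

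The mitosis transcripts were close to their wild type level in Icsbp-deficient GMP, with a median log2 ratio of -0.12 and 1 gene past the test. Of the 43 tested genes 1 fell, 0 rose and 42 did not pass (limma, Benjamini-Hochberg adjusted p under 0.05 over all genes), against a background of 7.4% of all genes called, 3.29% lower and 4.12% higher. The one fall was in Racgap1, a subunit of the centralspindlin complex that places the cleavage furrow, at a log2 ratio of -0.49 ± 0.13. Ratios are Icsbp-deficient over wild type, and ± is limma's moderated standard error over n = 2 array types, borrowed mostly from other genes. A count of 1 in 43 is near the background and is not a result about the group. The counts within single steps below rest on fewer genes still and are not results about the steps.

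The direction was less evenly spread than in the genes at large. The mean ratio lay below 0 for 35 of the 43 genes, against 51.6% of all genes tested. In the 430A pair alone 36 of the 43 ratios lay below 0, and in the MOE430_2 pair alone 34. Over all 7820 genes it was 4082 and 4019. The count moved when 1 array was left out, in fits that do not keep the array types apart and so mix array type into the ratio. It was 26 of 43 without the deficient 430A array and 28 of 43 without the wild type MOE430_2 array. Those counts are near the 57.7% and 58.5% of all genes in the same fits. Without the deficient MOE430_2 and the wild type 430A array it was 32 and 35 of 43 (42.7% and 43.6%). On both array types the ratio lay below 0 for 28 of the 43, against 34.4% of all genes, and above 0 on both for 1, Cdc25b, against 30.7%. Their median of -0.12 is a 1.09-fold difference, where the median of all genes was -0.01. With 1 array left out, the members' median minus that of all genes ran from -0.28 to -0.061. At an unadjusted p under 0.05, 10 of the 43 were lower and 0 higher, against 10.8% and 10.5% of all genes. The members rise and fall together through the cell cycle and are not independent, and no test was made of the group.

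The intervals limit how large a change the data leave room for. The 95% interval of the log2 ratio lay within a 2-fold change in both directions for all 43 genes, as it did for 93.6% of all genes. It lay within a 1.5-fold change for 33 of the 43, against 4846 of all 7820 genes. For 8 of the other members it reached a 1.5-fold lower level and for 2, Cdc25b and Cenpe, a 1.5-fold higher level. Over all 7820 genes, 1448 reached the lower level and 1531 the higher.

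**Figure D1:**
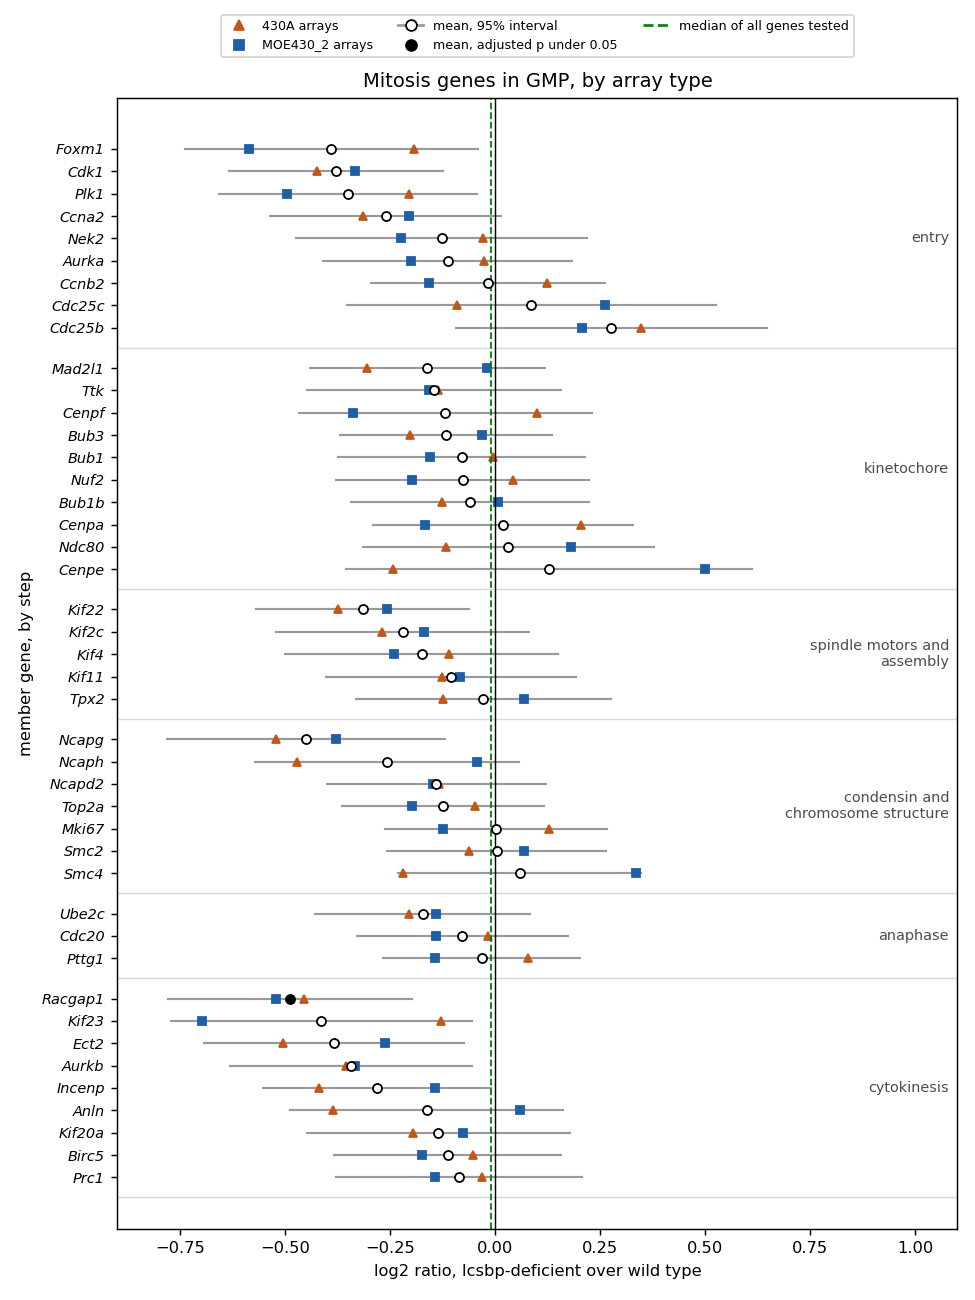
Log2 ratio of Icsbp-deficient over wild type GMP (horizontal axis) for each of the 43 tested mitosis genes (vertical axis), grouped by step. Triangles are the 430A arrays, squares the MOE430_2 arrays, circles the mean of both with its 95% interval, and the filled circle is Racgap1, the only gene past the test; 35 means lie left of 0, and the dashed line is the median of all genes.

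The start regions of these genes share short sequences that the choice of genes did not use. Promoters of late cell cycle genes are known for a CCAAT box, bound by NF-Y, followed by a cell cycle homology region (CHR) of the letters TTTGAA, through which the DREAM and Foxm1 complexes act. The RefSeq promoter table of build GRCm38.p6, which gives the 250 bases before and 50 after each start site, held 41 promoters of 38 of the 46 genes. TTTGAA, read on either strand, was present in 31 of the 41 (75.6%), against 17.9% of all 32851 promoters in the table. CCAAT on either strand was present in 33 (80.5%), against 37.4%, and both together in 28 (68.3%), against 6.95%. Of the 40 matches to TTTGAA, 28 lay between 60 bases before and 50 bases after the start site. The other CHR forms were rarer, with TTCGAA in 4 and TTTAAA in 9 of the 41 promoters (1.56% and 13.2% of all). The E2F forms TTTGGCGC, TTTCCCGC, TTTGCCGC and TTTCGCGC were found in 3, those of Cdk1, Ncapd2 and Ncapg, against 2.26% of all.

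The promoters shown are those of the 3 tested genes with the smallest p that the table holds, Racgap1, Cdk1 and Ncapg, and that of Mki67, whose ratio was nearest to 0. Capitals mark every match to the motifs above on either strand, so ATTGG is CCAAT read from the other strand and GCGGGAAA an E2F form. The Racgap1 promoter is chr15:99651607-99651906 on the minus strand, Cdk1 chr10:69352863-69353162 on the minus strand, Ncapg chr5:45669675-45669974 on the plus strand and Mki67 chr7:135716330-135716629 on the minus strand.
Racgap1: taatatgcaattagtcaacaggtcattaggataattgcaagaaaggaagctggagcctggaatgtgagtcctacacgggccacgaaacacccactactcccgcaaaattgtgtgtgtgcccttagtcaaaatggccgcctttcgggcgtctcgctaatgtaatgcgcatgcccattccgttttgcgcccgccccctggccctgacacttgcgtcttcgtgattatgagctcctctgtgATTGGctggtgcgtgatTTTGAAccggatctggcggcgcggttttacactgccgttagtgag
Cdk1: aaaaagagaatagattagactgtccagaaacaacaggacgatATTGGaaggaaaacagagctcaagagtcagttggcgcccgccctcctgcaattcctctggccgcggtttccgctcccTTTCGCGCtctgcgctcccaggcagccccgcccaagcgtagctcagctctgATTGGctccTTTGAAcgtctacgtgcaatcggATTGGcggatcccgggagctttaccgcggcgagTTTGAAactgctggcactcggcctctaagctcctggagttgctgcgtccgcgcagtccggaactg
Ncapg: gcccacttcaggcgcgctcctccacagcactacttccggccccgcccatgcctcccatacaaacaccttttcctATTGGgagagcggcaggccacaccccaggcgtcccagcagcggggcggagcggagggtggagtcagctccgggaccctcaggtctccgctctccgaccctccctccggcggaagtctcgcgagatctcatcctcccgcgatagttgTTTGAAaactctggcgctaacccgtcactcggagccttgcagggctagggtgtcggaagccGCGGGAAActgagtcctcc
Mki67: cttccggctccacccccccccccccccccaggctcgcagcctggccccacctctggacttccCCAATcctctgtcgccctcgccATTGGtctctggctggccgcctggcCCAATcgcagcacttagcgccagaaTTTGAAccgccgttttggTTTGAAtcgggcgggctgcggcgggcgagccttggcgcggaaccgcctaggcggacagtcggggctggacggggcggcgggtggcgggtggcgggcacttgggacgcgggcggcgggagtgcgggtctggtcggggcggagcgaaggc

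Racgap1 has 1 inverted CCAAT box 12 bases before its start site and 1 TTTGAA that begins 5 bases after it. Cdk1 has 3 inverted CCAAT boxes and 2 copies of TTTGAA, 71 and 15 bases before the start site, and an E2F form farther upstream. Mki67 carries 3 CCAAT boxes and 2 copies of TTTGAA as well with a ratio of 0.00, and Ncapg carries 1 of each and an E2F form 31 bases after the start site. Over the tested genes with a promoter in the table, the median log2 ratio was -0.13 for the 26 with TTTGAA and -0.08 for the 9 without it. For CCAAT the order was the other way, at -0.12 for the 27 with it and -0.14 for the 8 without. With an E2F form it was -0.38 for only 3 genes, Cdk1, Ncapd2 and Ncapg, and -0.12 for the 32 without. It was -0.07 for the 4 with TTCGAA and -0.11 for the 8 with TTTAAA, against -0.13 without either form. None of these differences was tested. A match is a description of letters and does not show that a factor binds there.

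Entry into mitosis was covered by 9 tested genes, of which 0 passed. Cdk1, the kinase that drives entry, had scaled signals (array trimmed mean 500) of 3019 in the wild type and 2224 in the deficient sample of the 430A pair, and of 2890 and 2281 in the MOE430_2 pair. Signals are given in this order throughout, wild type before deficient. The Cdk1 ratio lay below 0 on both array types, as it did for 34.4% of all genes. Its log2 ratio was -0.38 ± 0.12 (limma adjusted p = 0.078), with a 95% interval from -0.63 to -0.13. Its partner Ccna2, cyclin A2, did not pass either, at -0.26 ± 0.12 (limma adjusted p = 0.261).

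Plk1, the polo-like kinase that reinforces Cdk1 and matures the spindle poles, read 1359 and 1175 in the 430A pair and 867.3 and 587.6 in the MOE430_2 pair. The groups overlap, since the array types differ in level, but within each type the deficient sample was the lower one. The ratio was -0.35 ± 0.14 (limma adjusted p = 0.175). Foxm1, the transcription factor that switches on many of these genes, read 691.2 and 605.5 in the 430A pair and 309.5 and 181.9 in the MOE430_2 pair. Its ratio of -0.39 ± 0.16 (limma adjusted p = 0.183) came mostly from the MOE430_2 arrays, at -0.59 against -0.19. The other tested Foxm1 probe sets, dimmer on average, gave smaller ratios of -0.17 ± 0.17 and -0.15 ± 0.17.

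The Cdc25 phosphatases had mean ratios above 0 in the probe sets that represent them here, and neither passed. Cdc25b, a phosphatase that removes the inhibitory phosphates from Cdk1, had the highest ratio of all members at 0.28 ± 0.17 (limma adjusted p = 0.382), with signals of 279.7 and 371.9 in the 430A pair and 134.0 and 154.8 in the MOE430_2 pair. Its relative Cdc25c was at 0.09 ± 0.20, with opposite signs on the array types and signals of 118.4 to 143.8. Another Cdc25c probe set, on the MOE430_2 arrays alone, gave -0.43 (176.4 in wild type, 111.9 in deficient GMP). Ccnb2, cyclin B2, was at -0.02 ± 0.13, the centrosomal kinases Aurka and Nek2 were at -0.11 and -0.13, and none of them passed. The median of the 9 was -0.13.

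**Figure D2:**
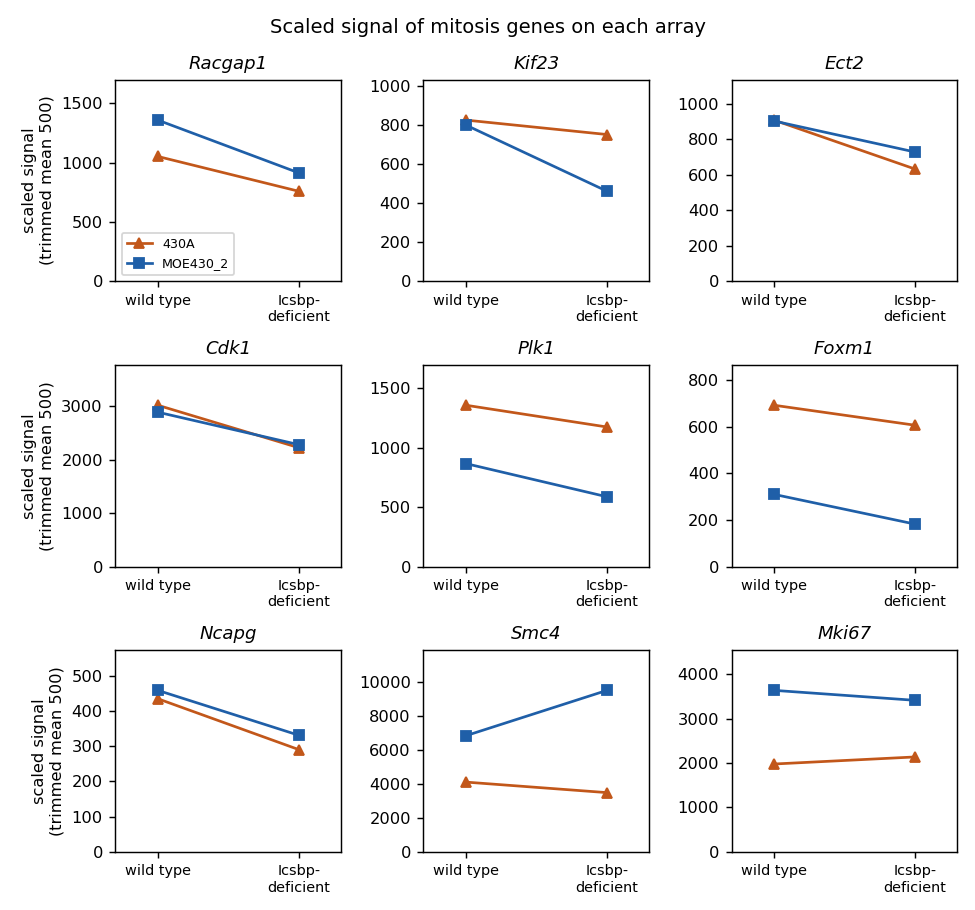
Scaled signal (vertical axis, trimmed mean of each array 500, axis from 0) in wild type and Icsbp-deficient GMP for 9 mitosis genes, 1 array per point; triangles are 430A and squares MOE430_2 arrays, and a line joins the arrays of a type. Apart from Smc4 and Mki67, the genes shown are the members with the lowest mean ratios. They slope down on both types, and Smc4 and Mki67 slope in opposite directions on the types. Of all 43 tested members, 28 had a ratio below 0 on both types.

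Kinetochore and checkpoint transcripts gave no call. Of 10 tested genes 0 passed in limma at an adjusted p under 0.05, against 7.4% of all genes. At an unadjusted p under 0.05 it was also 0, against 10.8% of all genes lower and 10.5% higher. With 10 genes these counts are near the shares of all genes and are not a result about the step. The 10 ratios lay between -0.16 and 0.13 with a median of -0.08, and 6 of them had opposite signs on the array types. The checkpoint genes were all below 0, with Mad2l1 at -0.16 ± 0.13, the kinase Ttk at -0.15 ± 0.14, Bub3 at -0.12 ± 0.11, the kinase Bub1 at -0.08 ± 0.13 and Bub1b at -0.06 ± 0.13. Ttk was lower in the deficient sample on both types, at 629.7 against 578.3 and 834.3 against 731.7.

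Among structural kinetochore genes, Cenpa, the histone H3 variant that marks the centromere, read 1127 and 1310 in the 430A pair and 1340 and 1176 in the MOE430_2 pair, opposite directions that gave 0.02 ± 0.14. The microtubule-binding partners Ndc80 and Nuf2 were at 0.03 ± 0.16 and -0.08 ± 0.14. Cenpf was at -0.12 ± 0.16. Cenpe, a kinetochore motor, ran from -0.24 on the 430A to 0.50 on the MOE430_2 arrays at signals under 200, and a brighter Cenpe probe set on the MOE430_2 arrays alone gave -0.18 (562.2 in wild type, 484.8 in deficient GMP).

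The 5 spindle motor and assembly genes were all below 0 in mean ratio and 0 passed. Kif22, a motor that pushes chromosome arms outward, read 2654 and 2033 in the 430A pair and 3430 and 2902 in the MOE430_2 pair. Its ratio was -0.32 ± 0.11 (limma adjusted p = 0.139), and its 3 probe sets gave ratios of -0.25, -0.32 and -0.34. Within the array types the ratio was -0.37 (430A) and -0.26 (MOE430_2). With 1 array left out it ran from -0.57 to -0.067, in fits that mix array type into the ratio. The microtubule depolymerase Kif2c was at -0.22 ± 0.14, the chromokinesin Kif4 at -0.18 ± 0.15, the pole-separating motor Kif11 at -0.11 ± 0.13 and the spindle assembly factor Tpx2 at -0.03 ± 0.14.

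Condensin subunits had ratios from -0.45 to 0.06, and none passed. Ncapg, a regulatory subunit of condensin I, read 435.0 and 290.2 in the 430A pair and 458.8 and 331.0 in the MOE430_2 pair. The deficient sample was the lower one on both array types, and the ratio was -0.45 ± 0.15 (limma adjusted p = 0.106). The other condensin I subunits were at -0.26 ± 0.14 (Ncaph, with -0.47 in the 430A pair and -0.04 in the MOE430_2 pair) and -0.14 ± 0.12 (Ncapd2). A dimmer Ncaph probe set gave -0.06 ± 0.14. The ATPase subunits that condensins I and II share were at 0.00 ± 0.12 (Smc2) and 0.06 ± 0.13 (Smc4). Smc4 read 4092 and 3473 in the 430A pair but 6816 and 9482 in the MOE430_2 pair. Whether Ncapg differed from Smc2 and Smc4 was not tested.

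Of the genes placed with condensin for their role in chromosome structure, Top2a, topoisomerase II alpha, was at -0.12 ± 0.11, with 3471 and 3312 in the 430A pair and 4593 and 4128 in the MOE430_2 pair. Mki67, which coats mitotic chromosomes and is the usual marker of dividing cells, read 1978 and 2137 in the 430A pair and 3638 and 3414 in the MOE430_2 pair. Its ratio was 0.00 ± 0.12 with a 95% interval from -0.26 to 0.27. The step's median was -0.12, and 0 of its 7 genes passed.

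The 3 tested anaphase genes were near 0. Cdc20, the activator of the anaphase-promoting complex, was at -0.08 ± 0.11, its E2 enzyme Ube2c at -0.17 ± 0.12 and securin, Pttg1, which holds separase inactive, at -0.03 ± 0.11. Ube2c was lower in the deficient sample of both types, at 2854 against 2450 and 2238 against 2018. Espl1, separase itself, was measured on the MOE430_2 arrays only, at 624.2 in wild type and 535.0 in deficient GMP, a log2 ratio of -0.18 with no replicate.

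Cytokinesis genes had a median of -0.28, and all 9 tested members had a mean ratio below 0, 8 of them on both array types. This was the lowest median of the 6 steps over all arrays, but the order did not hold throughout. On the MOE430_2 arrays alone entry was lower, at -0.21 against -0.17. Another step was also lower without the deficient 430A array (entry -0.34, cytokinesis -0.22), the wild type 430A array (condensin -0.34, cytokinesis -0.31) or the wild type MOE430_2 array (spindle motors -0.27, cytokinesis -0.25). The fits with 1 array left out mix array type into the ratio. Over all arrays only Racgap1 passed. It read 1052 and 759.0 in the 430A pair and 1358 and 913.6 in the MOE430_2 pair, lower in the deficient sample of both. The difference was 1.4-fold, with ratios of -0.45 and -0.52 on the array types, and the limma adjusted p over all genes was 0.049. This call is at the edge of the threshold. Racgap1 passed in 4 of 11 other settings that kept all arrays, with adjusted p from 0.0133 to 1.0, and not when the variance was moderated over all probe sets, at 0.0721. It also did not pass when any 1 of the 4 arrays was left out, in fits without the array type block that called 32 to 36 genes in all. Its second probe set gave a similar ratio, -0.48 ± 0.15.

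The partners of Racgap1 lay in the same direction without passing, in the probe sets that represent them here. Kif23, the motor that pairs with Racgap1 in centralspindlin, read 825.4 and 751.5 in the 430A pair and 800.0 and 461.5 in the MOE430_2 pair, a ratio of -0.41 ± 0.16 (limma adjusted p = 0.168). The size differed between the array types, at -0.13 and -0.70. With 1 array left out it ran from -0.73 to -0.10, in fits that mix array type into the ratio. A second, dimmer Kif23 probe set gave 0.05 ± 0.19 and was above 0 on both array types. Ect2, the exchange factor for RhoA that centralspindlin brings to the midzone, read 908.0 and 632.4 in the 430A pair and 902.9 and 728.2 in the MOE430_2 pair. The deficient sample was the lower one on both array types, and the Ect2 ratio was -0.38 ± 0.14 (limma adjusted p = 0.14).

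The chromosomal passenger complex, which corrects attachments before anaphase and moves to the midzone after it, was represented by Aurkb at -0.34 ± 0.13 (limma adjusted p = 0.157), Incenp at -0.28 ± 0.12 (limma adjusted p = 0.217) and Birc5 at -0.11 ± 0.12. Aurkb read 1084 and 842.2 in the 430A pair and 1284 and 994.6 in the MOE430_2 pair, again lower in both deficient samples. Cdca8, the fourth subunit, had 3 probe sets on the MOE430_2 arrays only, with ratios of -0.16, -0.09 and -0.18. The ring scaffold Anln was at -0.16 ± 0.15, the midzone motor Kif20a at -0.14 ± 0.14 and the microtubule bundler Prc1 at -0.09 ± 0.13.

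Ratios of the 43 genes correlated only loosely between the array types, at a Pearson r of 0.18 across genes, against 0.57 across all genes tested. The values within a type share their pair of arrays, and genes are not independent replicates. The members' ratios spread little to begin with, over an interquartile range of 0.26 in the 430A pair and 0.20 in the MOE430_2 pair, against 0.42 and 0.40 for all genes. The medians of the members were -0.13 and -0.16 in these pairs. A difference of at least 1.5-fold was reached on the 430A arrays by 0 members, against 4.72% of all genes lower and 5.19% higher. On the MOE430_2 arrays it was reached by 2 members, Kif23 and Foxm1, both lower, against 4.16% of all genes lower and 5.77% higher.

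**Figure D3:**
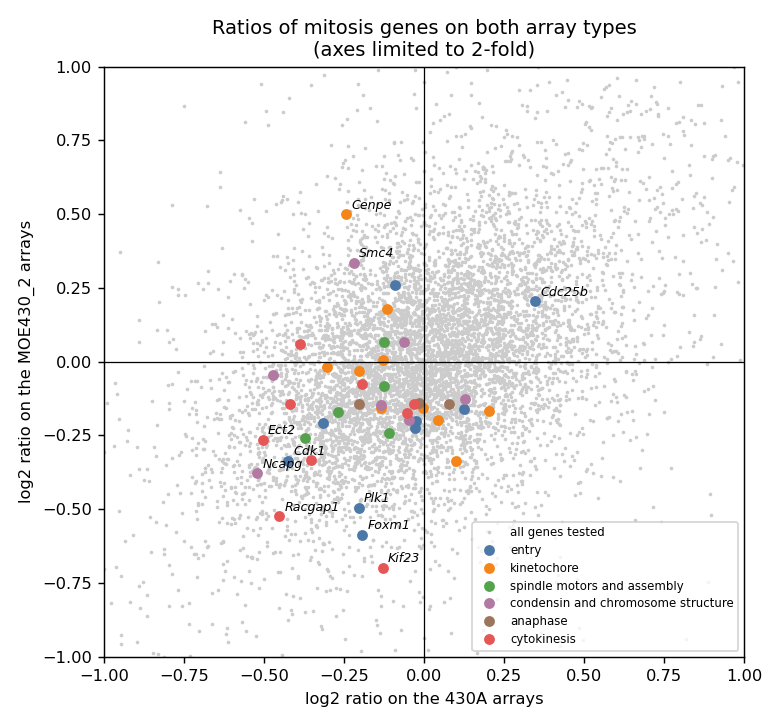
Log2 ratio on the 430A arrays (horizontal axis) against that on the MOE430_2 arrays (vertical axis) for all genes tested (grey) and the 43 mitosis genes, coloured by step; genes beyond 2-fold lie outside the axes. The lower left, below 0 on both types, holds 28 of the 43, and the upper right holds 1, Cdc25b.

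Several genes were read by more than 1 probe set, and these did not always agree. In the fit over probe sets, 71 of the 76 shared probe sets of the members were tested, 56 of them below 0 and 15 above. Of the 71, 1 fell and 1 rose, against a background of 5.13% of all probe sets called, 2.14% lower and 2.99% higher. The fall was in the second probe set of Aurkb, at -0.67 ± 0.15 (limma adjusted p = 0.0279 over probe sets), with 619.9 and 396.1 in the 430A pair and 1353 and 777.4 in the MOE430_2 pair. The rise was in a dimmer probe set of Smc4, at 0.61 ± 0.15 (limma adjusted p = 0.0435), with 658.0 and 1197 in the 430A pair and 1213 and 1633 in the MOE430_2 pair. The other Smc4 probe sets gave 0.19 and 0.06. In this fit neither probe set of Racgap1 passed, with adjusted p of 0.0781 and 0.112.

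More than 1 probe set was tested for 19 genes, of which 15 had all of them on the same side of 0 and 4, Cdc20, Kif2c, Kif23 and Pttg1, had them on both sides. Prc1 differed in size, with -0.47 ± 0.15 from the probe set that does not represent the gene here. The probe sets of 9 genes carry the suffix s_at or x_at, which marks probes that can match other transcripts, and all 9 had a ratio below 0. Among the 34 genes read by other kinds of probe set, 26 were below 0, with a median of -0.12.

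**Figure D4:**
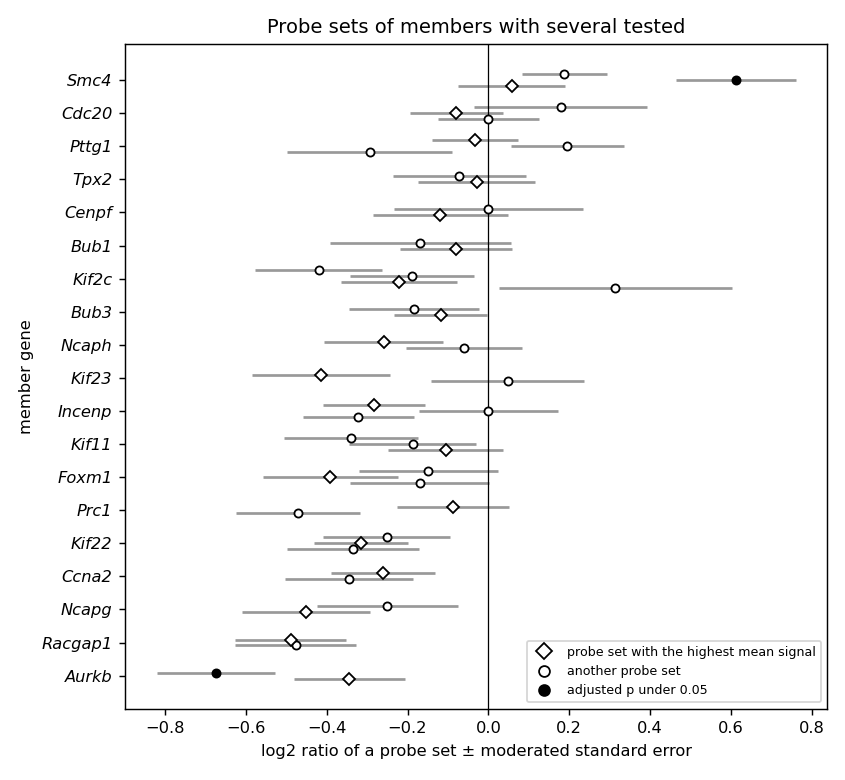
Log2 ratio of each tested probe set (horizontal axis, bars are limma's moderated standard error) for the 19 mitosis genes with more than 1 (vertical axis); diamonds mark the probe set that represents the gene and filled symbols an adjusted p under 0.05 over all probe sets. The filled symbols are the second Aurkb probe set at -0.67 and a dimmer Smc4 probe set at 0.61.

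The MOE430_2 array held 29 further probe sets for 18 of the 46 genes. Of the 22 with a mean signal above the 40th percentile of the shared probe sets, 15 had a ratio below 0, and the median was -0.17. The lowest was a Top2a probe set at -0.84 (386.8 in wild type, 187.9 in deficient GMP), well under the ratio of the brighter shared Top2a probe set. The highest was a Smc2 probe set at 0.58 (239.3 and 371.0). There was 1 array a group, so these ratios have no error.

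Other genes of the cell cycle also had medians below 0. Of 78 tested mitosis genes outside the 46, among them subunits of the anaphase-promoting complex, cohesin, the constitutive centromere network and the augmin complex, 0 passed in limma at an adjusted p under 0.05. At an unadjusted p under 0.05, 7 of the 78 were lower and 1 higher, no larger a share than the 10.8% and 10.5% of all genes. Their median was -0.14 and 61 of 78 were below 0. Of 43 replication genes, which act in S phase before mitosis, 2 fell and 0 rose, near the 3.29% of all genes called lower. At an unadjusted p under 0.05, 13 of these 43 were lower and 0 higher. The called genes were Cdc6, a loader of the replicative helicase, at -0.58 ± 0.15 (limma adjusted p = 0.0437) and Pold2, a subunit of DNA polymerase delta, at -0.51 ± 0.12 (limma adjusted p = 0.0305). The replication genes had a median of -0.20, with 39 of 43 below 0. Whether these medians differ from that of the 46 genes was not tested. TTTGAA was found in 33.7% of the promoters of the other mitosis genes and in 17.4% of those of the replication genes, which held an E2F form in 30.4%. CCAAT was found in 56.4% and 58.7% of these promoters, also above the 37.4% of all promoters. Both CCAAT and TTTGAA were found in 21.8% and 6.52%.

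**Figure D5:**
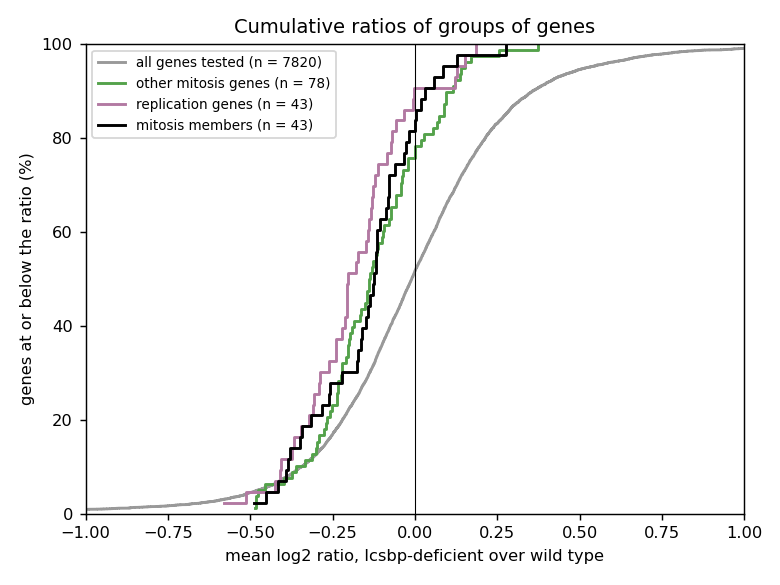
Share of genes (vertical axis, percent) at or below a mean log2 ratio (horizontal axis) for the 43 mitosis genes, 78 other mitosis genes, 43 replication genes and all 7820 genes tested. The 3 cell cycle curves lie left of the curve of all genes over most of its middle, with medians of -0.12, -0.14 and -0.20 against -0.01, and do not reach its tails.

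Of the 7 listed GMP genes, Mpo, Elane, Prtn3 and Ctsg were bright on all 4 arrays with ratios between -0.02 and 0.05. Kit was at 0.28 and did not pass. Cd34 fell, at -1.73, and Fcgr3 rose, at 1.00, and both proteins are commonly used to sort GMP. The deficient samples kept signal for Irf8 itself, at 3059 and 2776 in the 430A pair and 4798 and 2725 in the MOE430_2 pair for its first probe set, and 3074 and 3234, then 1847 and 1892, for its second. These probe sets do not check the labels, since the deleted part is not known here. Several lists of genes used as markers of other cell types moved with the genotype. The 8 genes listed for neutrophils summed to 10631 and 19931 in wild type and 29246 and 55328 in deficient GMP, and 8 of 8 rose. The 6 basophil and mast cell genes summed to 5025 and 5674 against 1752 and 2074, and 6 of 6 fell. Of 6 tested erythroid genes 2 fell, and 7 on the arrays summed to 4575 and 5253 against 3699 and 3137. Both eosinophil genes and 3 of 4 dendritic cell genes fell, with sums of 1240 and 3242 against 432 and 126, and of 965 and 724 against 626 and 214. Of 3 monocyte genes 2 rose, with sums of 3955 and 5931 against 5968 and 8576. B cell genes (674 and 527 against 828 and 669, 0 of 2 tested called) and T cell genes (66 and 31 against 158 and 44, none tested) were dim. None of the marker genes was listed at 0 on any array. Whether these genes changed through other cells in the samples or within GMP was not tested. The part of either in the ratios of the mitosis genes was not tested.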

How the data were processed

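RNA of GMP from 2 wild type and 2 Icsbp-deficient preparations was measured on Affymetrix arrays, 1 of each group on each array type. The deposited values are linear intensity, 1 per probe set. The submitters' processing notes name GCOS for the MOE430_2 pair. The sources used here give no GCOS version and no processing by the authors for the 430A arrays. Per the labels' protocols, RNA labelling used an ENZO kit for the deficient 430A sample and a one-cycle kit for the MOE430_2 pair.

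The 22626 probe sets shared by both types, without 64 controls, were scaled on each array to a trimmed mean of 500 (2% off each end). The trimmed means as deposited were 498.5 and 167.1 in the 430A pair and 160.4 and 158.6 in the MOE430_2 pair, wild type first. An offset of 50 was added, log2 taken, and the arrays of each type quantile normalized together. Ratios on this log2 scale understate the change of dim genes. Probe sets under the 40th percentile of mean signal (9050) were not tested. Symbols came from the platform annotation, updated through RefSeq GRCm38.p6 (20351 of 20380 matched). A gene was represented by its brightest tested probe set, by mean signal. Probe sets on the MOE430_2 array alone were scaled by the same factor and normalized over that array.

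The genotype effect was fitted in limma 3.58.1 (R 4.3.3), keeping array type as a block in lmFit and letting eBayes follow the intensity trend. P-values are two-sided and were adjusted by Benjamini-Hochberg over 7820 genes or, separately, 13576 probe sets, with 0.05 as threshold. The block takes up array type only, and other differences between the samples of a pair, such as preparation and processing, stay in the ratio. The fit leaves 1 residual degree of freedom, to which moderation added 9.65. On simulated arrays the probe-set test over 13576 probe sets recovered 92.5% of those changed by 1 on the log2 scale. The noise there was independent and of a chosen size, and no change under 1 was simulated. The share recovered at the size of the members' ratios is not known. Alternatives were other offsets, filters, normalizations and probe set summaries, no intensity trend, no block, and each array or array type left out. A further Icsbp-deficient preparation on the 430A array was not analysed here. The number of arrays limits the precision. The named genes are all 46 members and any called gene of the comparison lists. Members, steps and lists were chosen with earlier results of these data known.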

Additional observations from a re-analysis of the deposited data

How the results depend on the processing

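The settings with all arrays changed the size of the shift in the mitosis genes little relative to the other genes: the median of the members minus that of all genes lay between -0.16 and -0.11, and 34 to 37 of 43 members were below 0, apart from 35 of the 40 tested with the 60th percentile filter and 43 of 43 in the values as deposited, where 98.0% of all genes were below 0. No member was called higher in any of these 11 settings. The 60th percentile filter gave 2 members called, 5 other mitosis genes called, a median of -0.26 for the step entry, a median of -0.13 for the other mitosis genes and a median of -0.18 for the replication genes. Cyclic loess gave 0 members called, a median of -0.13 for the step condensin, a median of -0.11 for the other mitosis genes and a median of -0.18 for the replication genes. Mean of probe sets gave 2 members called and a median of -0.21 for the replication genes. No filter gave 287 genes called in all and 0 members called. No intensity trend gave 330 genes called in all and 0 members called. The fit without the replicate block (array type) gave 1 gene called in all and 0 members called. Offset 100 gave 1 other mitosis gene called, a median of -0.13 for the other mitosis genes and a median of -0.18 for the replication genes. Offset 16 gave 0 members called, a median of -0.14 for the other mitosis genes and a median of -0.21 for the replication genes. Scaling only gave 2 members called, 5 other mitosis genes called, a median of -0.11 for the step condensin and a median of -0.19 for the replication genes. The values as deposited, whose median over all genes was -0.67, gave 0 genes called in all, 0 members called, a median of -0.83 for the mitosis members, a median of -0.85 for the step entry, a median of -0.80 for the step kinetochore, a median of -0.83 for the step spindle, a median of -0.88 for the step condensin, a median of -0.83 for the step anaphase, a median of -1.05 for the step cytokinesis, a median of -0.81 for the other mitosis genes and a median of -0.90 for the replication genes. Moderating the variance over all probe sets, a setting chosen after seeing the data, gave 0 members called. The 430A arrays alone gave a median of -0.12 for the step kinetochore, a median of -0.13 for the step spindle, a median of -0.13 for the step condensin, a median of -0.12 for the other mitosis genes and a median of -0.17 for the replication genes. MOE430_2 arrays alone gave a median of -0.16 for the mitosis members, a median of -0.12 for the other mitosis genes and a median of -0.17 for the replication genes. The second member called was Cdk1 with the 60th percentile filter and with scaling only, and Aurkb with the mean of probe sets. Single members crossed 0 in 13 of 470 cases, 8 of them in the values as deposited, where nearly all genes moved with the scale of the arrays and the sign says nothing about the member: Cdc25b (-0.41), Cdc25c (-0.45), Cenpa (-0.72), Cenpe (-0.43), Ndc80 (-0.61), Smc2 (-0.77), Smc4 (-0.66), Mki67 (-0.75). Cyclic loess did so for Smc2 (-0.0078), Mki67 (-0.0025). Scaling only did so for Smc2 (-0.0067), Pttg1 (0.014). The mean of probe sets did so for Cdc20 (0.033). 

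Leaving out 1 array required a fit without the block, which mixes array type into the ratio and left 1 group with a lone sample assumed to vary like the other group. The ranges were 32 to 36 for genes called in all, 0 for members called, -0.22 to -0.14 for mitosis members (-0.28 to -0.061 minus the median of all genes, which moved from -0.080 to 0.071), -0.34 to 0.0078 for entry, -0.17 to 0.064 for kinetochore, -0.27 to -0.17 for spindle, -0.34 to 0.096 for condensin, -0.19 to 0.12 for anaphase, -0.20 to -0.083 for other mitosis genes, -0.29 to -0.084 for replication genes (medians for the lists and steps). In these fits 28 members crossed 0 at least once, with ranges of Anln -0.53 to 0.20, Bub1 -0.24 to 0.078, Bub1b -0.27 to 0.15, Bub3 -0.43 to 0.20, Ccnb2 -0.30 to 0.26, Cdc20 -0.38 to 0.22, Cdc25b -0.23 to 0.79, Cdc25c -0.013 to 0.18, Cenpa -0.096 to 0.13, Cenpe -0.17 to 0.42, Cenpf -0.36 to 0.12, Foxm1 -1.12 to 0.34, Kif11 -0.27 to 0.060, Kif20a -0.33 to 0.059, Kif4 -0.43 to 0.078, Mad2l1 -0.38 to 0.059, Mki67 -0.44 to 0.45, Ndc80 -0.17 to 0.23, Nek2 -0.34 to 0.080, Nuf2 -0.27 to 0.11, Plk1 -0.81 to 0.11, Prc1 -0.31 to 0.13, Pttg1 -0.19 to 0.12, Smc2 -0.28 to 0.28, Smc4 -0.61 to 0.73, Top2a -0.34 to 0.096, Tpx2 -0.32 to 0.26, Ttk -0.32 to 0.029. The others kept their sign, with ranges of Aurka -0.16 to -0.066, Aurkb -0.47 to -0.22, Birc5 -0.20 to -0.024, Ccna2 -0.42 to -0.11, Cdk1 -0.41 to -0.35, Ect2 -0.49 to -0.28, Incenp -0.40 to -0.16, Kif22 -0.57 to -0.067, Kif23 -0.73 to -0.10, Kif2c -0.27 to -0.17, Ncapd2 -0.17 to -0.11, Ncapg -0.54 to -0.36, Ncaph -0.45 to -0.071, Racgap1 -0.66 to -0.32, Ube2c -0.35 to -0.00057. With 1 array a group and type the number of arrays limits the precision. The standard error was largest for Cenpe, at 0.22, a dim member.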
